A study of Mus musculus with 12 samples.

Results

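The 6 genes described here encode the estrogen-related receptors (ERRs: Esrra, Esrrb and Esrrg), their coactivators PGC-1α and PGC-1β (Ppargc1a and Ppargc1b) and the PGC-1- and ERR-induced muscle regulator Perm1. They were chosen by name, as 6 of 21627 protein-coding genes, and H3K27ac ChIP-seq peaks were collected for each in a window that reaches 10 kb beyond either end of the gene. H3K27ac is an acetylation of histone H3 found at active promoters and enhancers. A pair of groups of newborn mouse hearts were compared. The edKO hearts came from postnatal day 0 newborns with a cardiomyocyte-specific RXRab-/- genotype. The other cells of the heart thus still had the retinoid X receptors RXRα and RXRβ. The WT hearts came from wild-type newborns of the same day. Each group had 3 whole hearts, each taken by the submitters as a biological replicate and named here by the number in its label (edKO 1, 3 and 6, and WT 1, 3 and 4). The labels do not give the promoter of the Cre, the strain, the sex or the litters.

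ERRs are orphan nuclear receptors: no natural hormone is established as their ligand, and their activity is set largely by bound coactivators, above all PGC-1α and PGC-1β. They bind as monomers or dimers to an extended half-site, AAGGTCA, in genes of the respiratory chain, the tricarboxylic acid cycle and fatty acid oxidation. ERRα, ERRγ and the PGC-1 coactivators are known for driving mitochondrial gene expression in the heart around birth, when its fuel changes from glucose and lactate to fatty acids. PGC-1α also coactivates dimers of RXR with the fatty acid receptor PPARα.

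Each heart had 1 deposited peak list, with 80673, 80182 and 114098 entries in edKO 1, 3 and 6, against 102178, 110348 and 111137 in WT 1, 3 and 4. The lists covered 66.6, 47.9 and 62.6 Mb in the edKO hearts and 67.4, 68.3 and 59.1 Mb in the WT hearts, so edKO 3 had the shortest covered length. All 10 cardiomyocyte marker genes lay under called regions, and their summed covered length was 187403, 144532 and 195807 bp in edKO hearts and 187774, 191281 and 181263 bp in WT hearts. Of 6 brown fat markers, Ucp1 had no called base in any heart. The list summed to 60388, 44072 and 66896 bp in edKO hearts and 66278, 60921 and 63531 bp in WT hearts. Most of this length lay at Prdm16 (48711 bp in edKO 1). With lengths centred per heart, Cidea had every edKO heart below every WT heart, as 5.76% of all loci did. It was the only 1 of the 4 tested loci of the list to separate the groups. In other marker lists, endothelial Tie1 and epicardial Tbx18 had every edKO heart above every WT heart, as 7.11% of all loci did. Of 6 leukocyte markers, Ptprc, Adgre1 and Lyz2 had no called base in any heart. The list summed to 4709, 4027 and 4568 bp in edKO hearts and 4647, 5037 and 4556 bp in WT hearts. In edKO hearts all of this length lay at Cd68. Csf1r and C1qa had called bases only in WT 3 and WT 4. None of the 10 cell type marker lists separated the groups in summed covered length. Fibroblast markers had the widest WT spread, with 37861, 39229 and 42749 bp in edKO hearts and 27865, 54335 and 40992 bp in WT hearts. Called length at the targeted genes did not separate the groups: Rxra had 15107, 8682 and 18432 bp in edKO hearts and 11157, 15540 and 18868 bp in WT hearts. At Rxrb the lengths were 5250, 4246 and 5226 bp in edKO hearts and 5138, 5143 and 5323 bp in WT hearts. The mark in whole hearts is no check of a deletion limited to cardiomyocytes.

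The stretches before 4 of the start sites are shown because H3K27ac was called over each of them in all 6 hearts and because they contrast in base composition and in motif content. Each is the 250 bases before the listed start, 5′ to 3′ on the gene's strand, from RefSeq promoter windows of GRCm38.p6. They are chr19:6921809-6922058 (minus strand) for Esrra, chr1:187608756-187609005 (plus strand) for the first of 4 Esrrg starts, chr5:51567726-51567975 (minus strand) for Ppargc1a and chr4:156215677-156215926 (plus strand) for Perm1. Capitals mark the 2 motif matches found.
Esrra: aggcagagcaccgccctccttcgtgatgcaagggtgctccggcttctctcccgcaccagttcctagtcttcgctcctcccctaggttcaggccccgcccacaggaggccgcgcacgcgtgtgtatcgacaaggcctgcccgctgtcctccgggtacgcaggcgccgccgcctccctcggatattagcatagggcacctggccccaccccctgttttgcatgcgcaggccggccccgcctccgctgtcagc
Esrrg, first start: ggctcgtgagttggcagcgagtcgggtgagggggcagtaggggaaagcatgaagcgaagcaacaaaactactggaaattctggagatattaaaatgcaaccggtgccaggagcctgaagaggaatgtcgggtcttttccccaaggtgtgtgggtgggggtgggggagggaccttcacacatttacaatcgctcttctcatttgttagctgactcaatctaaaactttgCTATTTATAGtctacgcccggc
Ppargc1a: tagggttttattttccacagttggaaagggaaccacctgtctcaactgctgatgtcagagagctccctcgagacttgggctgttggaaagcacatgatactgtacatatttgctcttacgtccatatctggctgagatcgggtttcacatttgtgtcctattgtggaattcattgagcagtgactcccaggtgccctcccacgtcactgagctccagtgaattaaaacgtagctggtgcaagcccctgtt
Perm1: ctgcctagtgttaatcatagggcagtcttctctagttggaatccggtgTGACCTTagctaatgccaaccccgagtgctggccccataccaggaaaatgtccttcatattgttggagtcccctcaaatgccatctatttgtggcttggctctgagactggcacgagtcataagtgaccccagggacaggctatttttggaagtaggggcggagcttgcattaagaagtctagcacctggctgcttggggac

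The Esrra stretch was 68.4% G and C with 22 CG dinucleotides. The first Esrrg stretch was 50.8% G and C with 9 CG dinucleotides, the Ppargc1a stretch 48.0% with 5, and the Perm1 stretch 51.2% with 4. Both strands of the 300-base windows, from 250 bases before to 50 after the start, were searched for 5 motifs. The ERR half-site AAGGTCA was held by 4.72% of all 32851 RefSeq windows, and among the 5 genes with a listed window by Perm1 alone. There it lies on the minus strand, 202 bases before the start, and reads TGACCTT on the gene's strand. CTA and TAG with any 4 bases between is a loose form of the site of the MEF2 muscle transcription factors. It was held by 3.69% of windows, not all of which need be sites that MEF2 recognises. Among these genes the first Esrrg window alone held it, 22 bases before the start. TNAAGGTCA, which overlaps the half-site, was in 1.28% of windows, a direct repeat of AGGTCA with 1 base between the copies in 0.0396%, and the cAMP response element TGACGTCA in 1.79%, and none of the 9 windows of these genes held them. A match is only a match of letters. The reference table lists no start site or strand for Ppargc1b.

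All 6 loci carried called H3K27ac in every heart, as did 14075 of all 21627 genes. Joined over the hearts, their windows held 163 regions, of which 60 (36.8%) were called in all 6 hearts and 47 (28.8%) in 1 heart, against 35.8% and 32.2% of the 79289 joined regions of the genome. Covered length, the bases of the window under called regions, was greatest at Ppargc1a, which ranked 17 of all 21627 genes by its mean over the hearts. Esrrg ranked 105, Ppargc1b 118, Perm1 2067, Esrra 3348 and Esrrb 6222. Per length of window the order was different. By mean percent of window covered, Ppargc1b ranked 779, Perm1 1397, Esrra 1773, Ppargc1a 4918, Esrrg 7786 and Esrrb 12778 of all genes. Ppargc1b had 22.3 ± 4.45% of its window covered in edKO hearts and 28.6 ± 0.57% in WT hearts (SD, n = 3 each, as for all means below). Perm1 had 19.8 ± 0.83% in edKO hearts and 20.6 ± 3.52% in WT hearts. Esrra had 17.7 ± 3.99% in edKO hearts and 18.6 ± 0.57% in WT hearts. These 3 neighbours in the order overlapped: Perm1 exceeded Ppargc1b in edKO 3, and Esrra exceeded Perm1 in edKO 1, edKO 6 and WT 4. The lower 3 kept 1 order in all 6 hearts. Ppargc1a had 8.98 ± 1.82% in edKO hearts and 9.44 ± 0.88% in WT hearts. Esrrg had 5.66 ± 1.09% in edKO hearts and 5.63 ± 1.66% in WT hearts. Esrrb, best known as a pluripotency factor of embryonic stem cells, had 1.70 ± 0.67% in edKO hearts and 2.10 ± 0.11% in WT hearts.

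**Figure D1:**
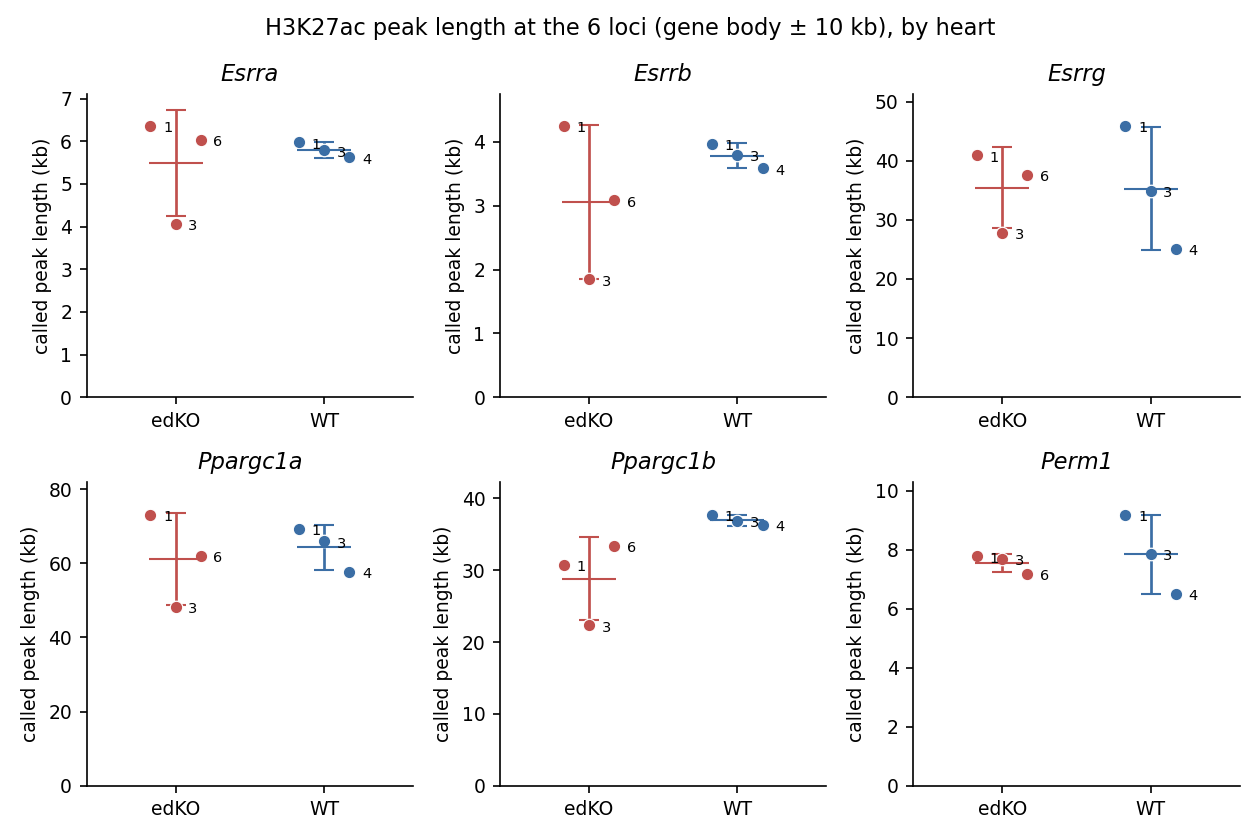
Called H3K27ac peak length (kb) at the 6 genes, from 10 kb before to 10 kb past each, with 1 point per heart labelled by its number, the mean as a horizontal line and the SD as error bars (n = 3 each). Ppargc1b is the only panel in which every edKO heart lies below every WT heart.

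The comparison of edKO with WT hearts asked whether loss of RXRα and RXRβ in cardiomyocytes was accompanied by a change in the mark at the genes of this coactivator circuit. None of the 6 loci passed the threshold (limma on log2 covered length over 14313 loci, Benjamini-Hochberg adjusted p of 0.05). Over all loci 15 passed as lower in edKO (0.105%) and 0 as higher (0.0%), while 663 (4.63%) were lower and 283 (1.98%) higher at an unadjusted p below 0.05. Without the centring per heart these unadjusted counts were 598 lower and 27 higher, and the median over all loci was -0.05. Of the 6 loci, 4 had an estimate below 0 and 2 above, against 41.5% of all loci below 0 in the centred fit. Their median log2 difference was -0.01, beside 0.03 over all loci. Only Ppargc1b had every edKO heart below every WT heart in centred length, which 5.76% of all loci did. None had every edKO heart above every WT heart, as 7.11% of all loci did. In whole hearts, fewer cells carrying a mark and less mark per cell cannot be told apart.

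**Figure D2:**
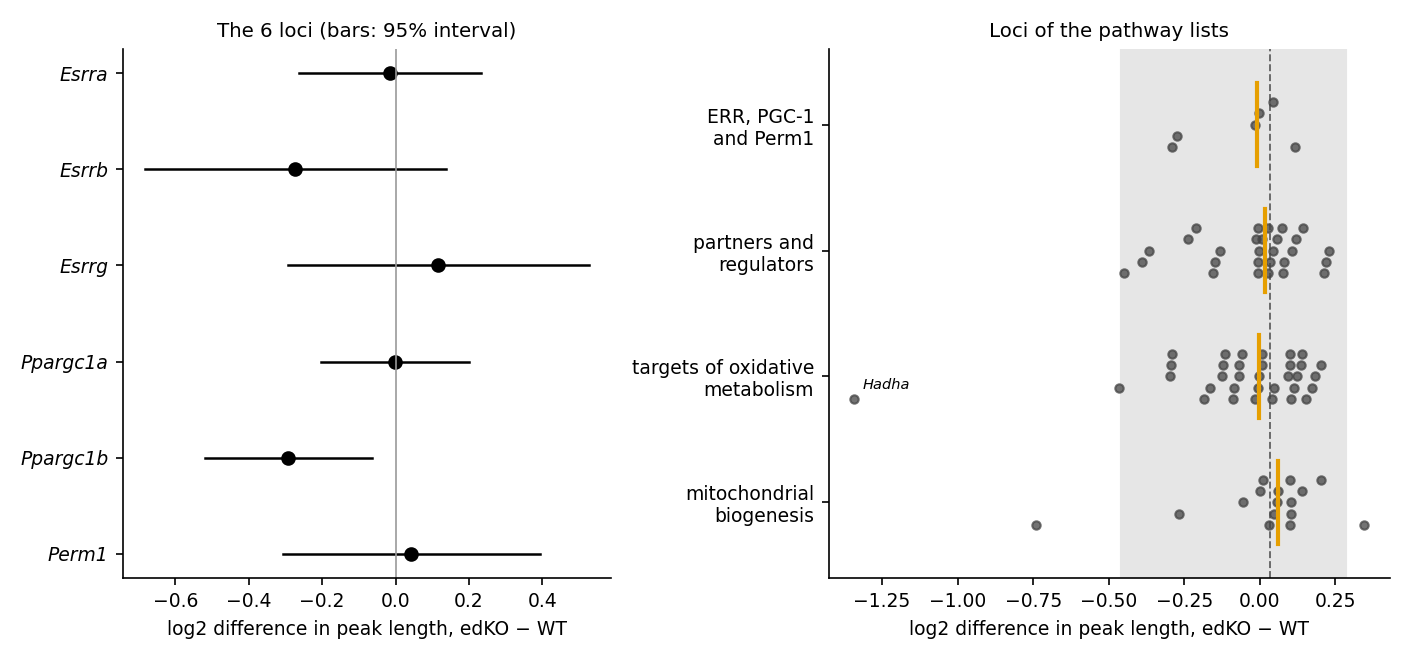
Left, the log2 difference in called peak length, edKO minus WT, at each of the 6 loci, with its 95% confidence interval from limma. Right, the same difference for the loci of 4 gene lists (1 point per locus, list median in orange), with the median of all 14313 loci dashed and their 5th to 95th percentiles (-0.46 to 0.29) shaded. Only the Ppargc1b interval excludes 0 on the left, with no call after adjustment, and only Hadha, on the right, passed the threshold.

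Esrra encodes ERRα, the ERR most widely expressed in oxidative tissues. Its gene lies at chr19:6910977-6922048 on the minus strand and had 6356, 4066 and 6037 bp covered in edKO hearts, against 5975, 5788 and 5620 bp in WT hearts. In these bases edKO 1 and edKO 6 were above all WT hearts and edKO 3 below them. After centring, edKO 1 lay below WT 4. The difference was -0.02 on the log2 scale (SE 0.11, limma adjusted p = 0.980). The covered length fell into 4 regions, of which 2 were called in all 6 hearts, and all of it in 5 hearts, and 95.7% in edKO 6, lay in regions that also touch other genes.

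The region over the Esrra start site (chr19:6919326-6923406), which also reaches the sperm ion channel gene Catsperz, was 3288, 2279 and 3285 bp long in edKO hearts and 3603, 3340 and 3305 bp in WT hearts. Every edKO value was thus below every WT value, with the highest edKO heart close to the lowest WT heart. Among regions called in all 6 hearts, 5.99% of 28395 behaved this way and 1.2% the opposite way. Within 2.5 kb of the start, where no other region adds length, the log2 difference was -0.19 (SE 0.09, limma adjusted p = 0.999). The second shared region (chr19:6908317-6911401) lies across the 3′ end of Esrra, over the peroxiredoxin gene Prdx5 and the methyltransferase cofactor gene Trmt112. It had 2682, 1787 and 2492 bp in edKO hearts against 2372, 2448 and 2315 bp in WT hearts, which overlapped.

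Esrrb, at chr12:86361117-86521628 on the plus strand, had 4250, 1848 and 3083 bp covered in edKO hearts and 3973, 3793 and 3585 bp in WT hearts. The edKO hearts spanned the WT range on both sides, and the difference was -0.27 (SE 0.18, limma adjusted p = 0.854). Its 8 regions were short, and only 2 of them were called in all 6 hearts. The longest, at the first of 2 start sites (chr12:86360293-86362186), had 1807, 957 and 1338 bp in edKO hearts and 1894, 1530 and 1708 bp in WT hearts. At the second start site a region was called in every heart but WT 4, with 623, 315 and 675 bp in edKO hearts and 382 and 499 bp in WT 1 and WT 3. A region 76239 bp past the second start was the other one shared by all hearts.

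Esrrb also stood lowest by the enrichment of its best entry. The authors' fold enrichment of a peak can be ranked only within its own list, and lists of different length do not compare between hearts. The best Esrrb entry stood at percentile 73.4, 47.2 and 77.6 of its list in the edKO hearts and at percentile 85.8, 84.1 and 79.3 in the WT hearts. The best entries of the other 5 loci lay between percentiles 94.7 and 99.8 in every heart.

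Esrrg encodes ERRγ, the ERR enriched in heart and other highly oxidative tissue. The gene spans 606376 bp (chr1:187608510-188214885, plus strand) and held 53 regions, of which 18 (34.0%) were called in all 6 hearts and 14 (26.4%) in 1 heart. Covered length was 40920, 27822 and 37602 bp in edKO hearts and 45864, 34866 and 25087 bp in WT hearts. The highest and the lowest heart were both WT, so the groups overlapped fully, and the difference was 0.12 (SE 0.18, limma adjusted p = 0.911).

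All 4 listed Esrrg start sites lay under called regions in all 6 hearts. The first (chr1:187608269-187610764) had 2294, 1640 and 2338 bp in edKO hearts and 2299, 1887 and 1763 bp in WT hearts. The next pair of starts, close together, shared a region (chr1:187649880-187652943) with 2953, 1937 and 2796 bp in edKO hearts and 2833, 2307 and 2031 bp in WT hearts. This region held the best-ranked entry of the locus in 5 hearts, and in edKO 3 the first start site did. The widest region lay at the fourth start (chr1:187997022-188001477), with 4306, 2665 and 3396 bp in edKO hearts and 3686, 2645 and 2258 bp in WT hearts.

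Most Esrrg length lay between that pair and the fourth start site, with 24162, 17265 and 21198 bp in edKO hearts and 29785, 21166 and 13395 bp in WT hearts. The WT hearts differed there by more than the edKO hearts did, and by more than the group means, which were 20875 ± 3460 bp in edKO hearts and 21449 ± 8199 bp in WT hearts. Downstream of the fourth start site the length was 8005, 4493 and 7667 bp in edKO hearts and 7378, 7046 and 5150 bp in WT hearts. No Esrrg region was called in all hearts of one genotype and none of the other, and none of the 18 shared regions separated the groups by length.

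**Figure D3:**
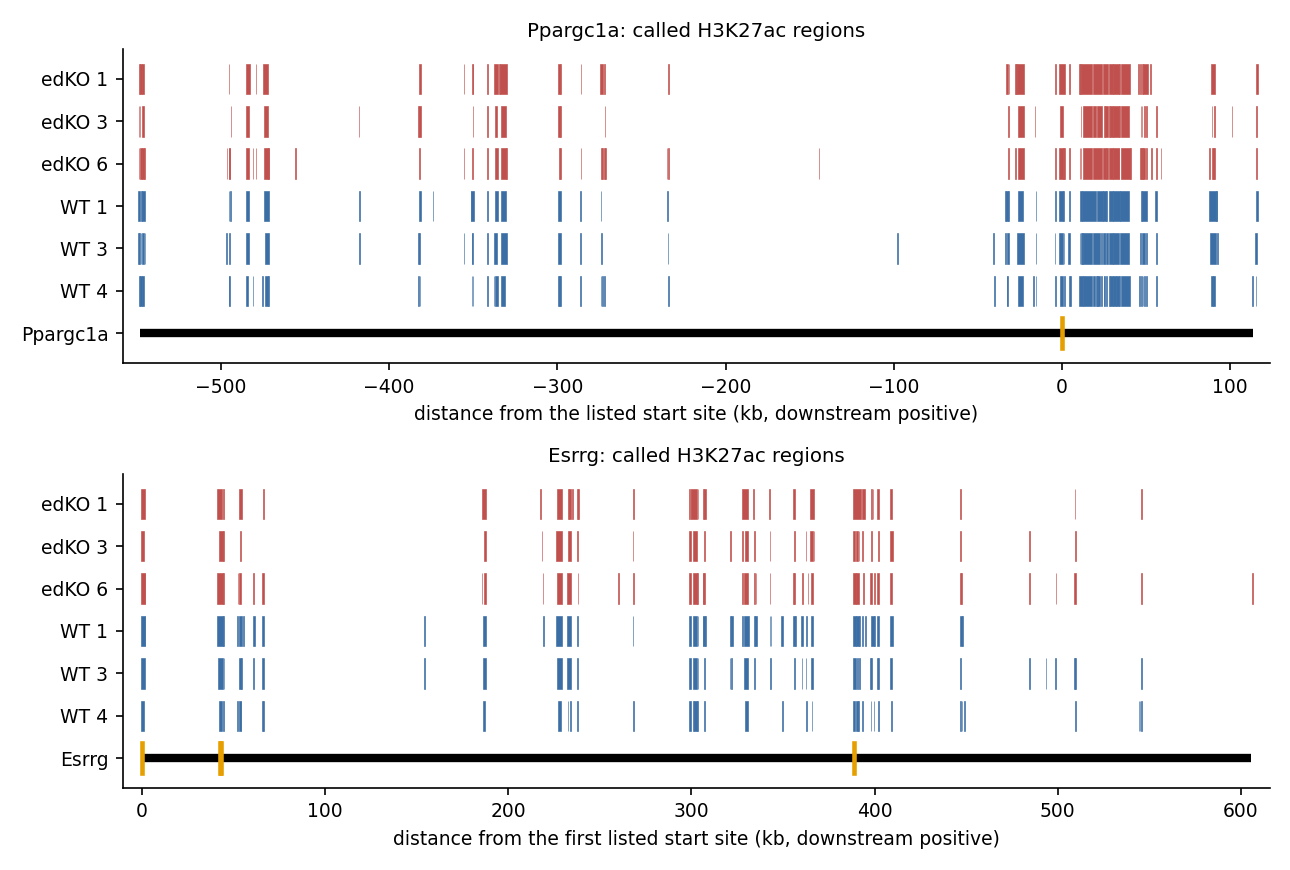
Called regions along Ppargc1a and Esrrg, 1 row per heart with edKO rows in red above WT rows in blue. The x axis is distance (kb) from the listed start site, with downstream positive. The black bar is the gene and the orange ticks its start sites. In every heart the widest block of called Ppargc1a regions lies within 50 kb downstream of the listed start.

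Ppargc1a encodes PGC-1α, the inducible coactivator of mitochondrial biogenesis. As annotated, the gene spans 661605 bp (chr5:51454249-52115853, minus strand), with 1 listed start at position 51567725. Its window had 73188, 48363 and 62072 bp covered in edKO hearts and 69357, 65967 and 57649 bp in WT hearts. The highest and the lowest heart were both edKO, and the difference was 0.00 (SE 0.09, 95% interval -0.20 to 0.20, limma adjusted p = 0.999). The interval allows a log2 difference of up to 0.20 in either direction, so the p does not show that the groups were equal.

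Ppargc1a length was concentrated downstream of the listed start. From 2.5 to 50 kb downstream, 31930, 25876 and 29256 bp were covered in edKO hearts and 30829, 30467 and 27878 bp in WT hearts. That stretch held the widest region of all 6 loci (chr5:51543532-51557477, 13946 bp when the hearts are joined), which begins 10248 bp downstream of the start. It was 13105, 11049 and 11709 bp long in edKO hearts and 13366, 12633 and 12056 bp in WT hearts, overlapping between groups. It held the best-ranked entry of the locus in all 6 hearts, at percentiles 96.5 to 99.3 in edKO hearts and 95.5 to 98.1 in WT hearts. The start region itself (chr5:51565850-51569336) had 3465, 1666 and 3055 bp in edKO hearts and 2817, 2491 and 2284 bp in WT hearts.

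From 50 kb upstream of the listed Ppargc1a start to 10 kb past the far end of the annotated gene, 24487, 13733 and 21164 bp were covered in edKO hearts and 21417, 20193 and 17588 bp in WT hearts. These distant regions include one at the far end of the gene (chr5:52112774-52116668) with 2952, 1857 and 3330 bp in edKO hearts and 3218, 2533 and 2692 bp in WT hearts. More than 50 kb downstream the length was 5618, 2851 and 3883 bp in edKO hearts and 8270, 5929 and 4116 bp in WT hearts. Its mean was 4117 ± 1398 bp in edKO hearts and 6105 ± 2083 bp in WT hearts, with edKO 1 above WT 4.

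Of the 57 Ppargc1a regions, 21 (36.8%) were called in all 6 hearts and 21 in 1 heart. One region (chr5:51583008-51583386), with its near edge at -15283 bp from the start, was called in no edKO heart and in all 3 WT hearts, at 374, 259 and 333 bp. Over the genome 854 of 79289 joined regions (1.08%) had this pattern and 57 (0.0719%) the opposite one. Over the 6 loci it was 2 of 163 (1.23%) and 0, a share near that of the genome. None of the 21 shared Ppargc1a regions separated the groups by length.

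Ppargc1b encodes PGC-1β, the relative of PGC-1α that supports basal mitochondrial content. Its gene lies at chr18:61291445-61400756. The window had 30738, 22327 and 33347 bp covered in edKO hearts against 37747, 36875 and 36268 bp in WT hearts. The WT hearts lay close together, and all 3 edKO hearts were below them. The mean was 28804 ± 5759 bp in edKO hearts and 36963 ± 743 bp in WT hearts. The difference was -0.29 on the log2 scale (SE 0.10, 95% interval -0.52 to -0.06). It ranked 455 of 14313 loci by p (unadjusted p = 0.0185 in limma's fit over all loci) and did not pass after adjustment (limma adjusted p = 0.583). Without edKO 3, the heart with the least covered length in total and at Ppargc1b, the difference was -0.24 (limma adjusted p = 0.939).

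The Ppargc1b window held 35 regions, of which 13 (37.1%) were called in all 6 hearts. The widest (chr18:61392996-61402500) lies at one end of the gene and held the best-ranked entry in every heart, at percentiles 98.0 to 99.0 in edKO hearts and 98.7 to 99.8 in WT hearts. It was 8300, 8354 and 8747 bp long in edKO hearts and 9167, 9480 and 8367 bp in WT hearts, and the groups overlapped because WT 4 lay within the edKO range. Outside it the locus had 22438, 13973 and 24600 bp in edKO hearts and 28580, 27395 and 27901 bp in WT hearts. There the groups did not overlap, with means of 20337 ± 5616 bp in edKO hearts and 27959 ± 595 bp in WT hearts.

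Of the 13 shared Ppargc1b regions, 3 (23.1%) were shorter in every edKO heart than in any WT heart, where 5.99% of all such regions were. Over the 6 loci together it was 4 of 60 (6.67%), close to that share. The longest of them (chr18:61330051-61334299) had 3303, 3209 and 2588 bp in edKO hearts and 3569, 3892 and 3798 bp in WT hearts. Another (chr18:61345574-61347294) had 1290, 788 and 863 bp in edKO hearts and 1587, 1430 and 1383 bp in WT hearts. The last of them (chr18:61335539-61336349) differed little, with 707, 567 and 695 bp in edKO hearts and 729, 721 and 769 bp in WT hearts. A short region beyond the widest one (chr18:61402648-61403491) was called in no edKO heart and in all 3 WT hearts, at 431, 569 and 386 bp. No region ran the other way. Regions of 1 locus are not independent, and lengths of single regions were not scaled for the length of a heart's list.

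**Figure D4:**
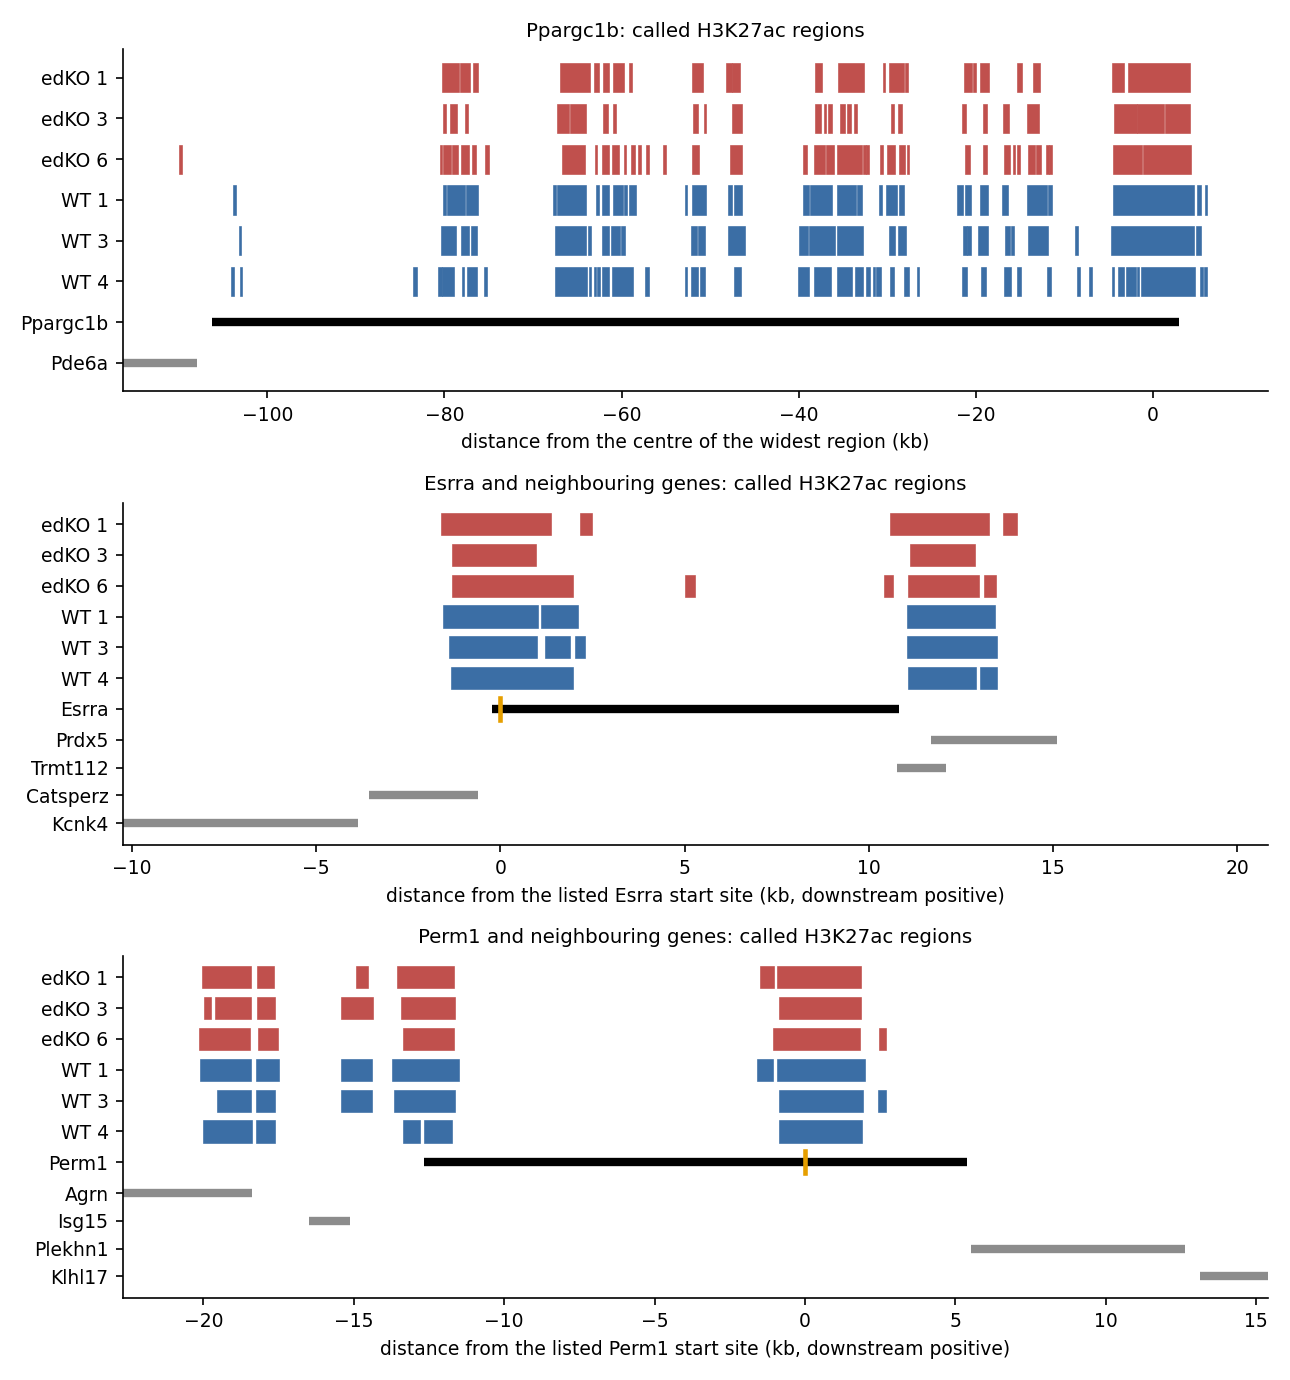
Called regions at Ppargc1b, Esrra and Perm1, 1 row per heart with edKO rows in red above WT rows in blue, the gene in black, its start site in orange and neighbouring genes in grey. The x axis is distance (kb) from the listed start site, or for Ppargc1b from the centre of its widest region. Away from that region, Ppargc1b is covered by many short regions, and its 3 edKO rows sum to less length than any WT row.

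Perm1 encodes a striated-muscle protein, induced by PGC-1 and ERRs, that promotes oxidative gene expression. Its gene lies at chr4:156203262-156221307 on the plus strand. The window had 7772, 7692 and 7191 bp covered in edKO hearts and 9193, 7856 and 6512 bp in WT hearts. In these bases all edKO values lay inside the WT range. After centring, edKO 3 lay above every WT heart. The difference was 0.04 (SE 0.15, limma adjusted p = 0.960), and -0.09 without edKO 3. Of its 6 regions, 4 (66.7%) were called in all 6 hearts.

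The region over the listed Perm1 start (chr4:156214323-156217935) was the widest and held the best-ranked entry in every heart. It was 3236, 2751 and 2899 bp long in edKO hearts and 3477, 2777 and 2763 bp in WT hearts. A second region (chr4:156202195-156204409), at the annotated 5′ end of the gene and upstream of the listed start, had 1893, 1811 and 1684 bp in edKO hearts and 2215, 2026 and 1513 bp in WT hearts. Regions touching the neighbouring genes Agrn, which encodes the synapse organiser agrin, and Isg15, an interferon-induced ubiquitin-like modifier, made up between 23.9% (edKO 6) and 33.0% (edKO 3) of the Perm1 length in every heart. The region at Isg15 was called in 2 hearts of each group, with 413 and 1072 bp in edKO 1 and edKO 3 and 1035 and 1024 bp in WT 1 and WT 3.

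Windows of neighbouring genes share regions with Esrra and Perm1, so their values are partly the same measurement. The 4 genes near Esrra had log2 differences of 0.03 (Prdx5), -0.09 (Trmt112), -0.05 (Catsperz) and -0.00 (the potassium channel gene Kcnk4). The 4 near Perm1 had 0.06 (Agrn), 0.04 (Isg15), 0.04 (Plekhn1) and 0.01 (Klhl17). The phosphodiesterase gene Pde6a next to Ppargc1b had -0.15 (SE 0.13, limma adjusted p = 0.874), and the only region of the Ppargc1b window that touches it was called in edKO 6 alone.

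Genes that act with the ERRs and PGC-1 coactivators showed no call. In the list of 28 partners and regulators, all tested, 13 estimates were below 0 and 15 above, with a median of 0.02. At an unadjusted p below 0.05, 2 were lower and 0 higher, beside 4.63% and 1.98% of all loci. The lowest was Nrip1, a corepressor of nuclear receptors in metabolic tissue, with 5659, 4036 and 5360 bp in edKO hearts and 7711, 7635 and 6583 bp in WT hearts. All edKO hearts were below all WT hearts there (log2 difference -0.45, SE 0.09, limma adjusted p = 0.197). Next was the coactivator Ncoa1 at -0.39 (limma adjusted p = 0.839). The highest were Gabpa, a subunit of the respiratory gene activator NRF-2, at 0.23 and the adipocyte receptor gene Pparg at 0.22, neither past the threshold (limma adjusted p = 0.854 and 0.908). At Gabpa every edKO heart was above every WT heart in centred length. In this list 2 loci had all edKO hearts below all WT hearts and 2 had the opposite, beside 5.76% and 7.11% of all loci.

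Of 34 ERR and PGC-1 target genes of oxidative metabolism, all tested, 1 was called lower and 0 higher. Over all loci the shares called were 0.105% and 0.0%. The list was chosen with earlier results of these data known. The called gene was Hadha, a subunit of the mitochondrial trifunctional protein of fatty acid oxidation. It had 3811, 2528 and 3583 bp in edKO hearts and 8354, 8745 and 10333 bp in WT hearts. The groups were far apart at Hadha (log2 difference -1.34, SE 0.14, limma adjusted p = 0.0308). Leaving out any 1 heart kept the difference between -1.42 and -1.20 but ended the call (limma adjusted p of 0.0717 to 0.141). The call also ended, at differences of similar size, with lists of equal length (-1.22, limma adjusted p = 0.0716) and without centring (-1.43, limma adjusted p = 0.056). Counting a region only for its nearest gene gave a larger difference and no call (-3.75, limma adjusted p = 0.463). The list's median was -0.00, with 18 estimates below 0 and 16 above. At an unadjusted p below 0.05, 3 were lower and 0 higher, beside the same 4.63% and 1.98%. Cpt1b, the muscle carnitine palmitoyltransferase, had 6135, 4022 and 5220 bp in edKO hearts and 7310, 7410 and 7784 bp in WT hearts. Its groups did not overlap, without a call (log2 difference -0.47, SE 0.11, limma adjusted p = 0.282). At the other end stood Ogdh of the tricarboxylic acid cycle at 0.20 and Ndufa4 of the respiratory chain at 0.18 (limma adjusted p = 0.857 and 0.854). Ndufa4 had every edKO heart above every WT heart in centred length. In this list 4 loci had all edKO hearts below all WT hearts and 1 had the opposite, beside 5.76% and 7.11% of all loci.

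Of 16 mitochondrial biogenesis factors, all tested, 0 passed the threshold, with 3 estimates below 0, 13 above and a median of 0.06. Here 2 were lower and 0 higher at an unadjusted p below 0.05, beside 4.63% and 1.98% of all loci. The lowest was Polrmt, the mitochondrial RNA polymerase, with 864, 488 and 729 bp in edKO hearts and 1155, 1370 and 1577 bp in WT hearts (log2 difference -0.74, limma adjusted p = 0.339). Polg, the mitochondrial DNA polymerase, stood at -0.27 (limma adjusted p = 0.711). Both had every edKO heart below every WT heart in centred length, and 0 loci of the list had the opposite, beside 5.76% and 7.11% of all loci. The highest were Tefm, a mitochondrial transcription elongation factor, at 0.35 and Tfam, which packages mitochondrial DNA, at 0.20 (limma adjusted p = 0.857 and 0.854).

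Over the 6 hearts, the loci whose centred length was most like that of Ppargc1b were Glp2r (Pearson r = 0.995) and Setbp1 (r = 0.993), and 56 loci reached r of 0.95 or more. Glp2r had 10097, 7347 and 11965 bp in edKO hearts and 13941, 13063 and 14281 bp in WT hearts. The most similar loci were Lrig1 (r = 0.993) and Gm32436 (r = 0.992) for Esrra, Sel1l3 (r = 0.990) and Mzt1 (r = 0.990) for Esrrb, and Lrp8 (r = 0.995) for Esrrg. For Ppargc1a they were Gm36375 (r = 0.990) and Gorasp1 (r = 0.989), and for Perm1 Psma7 (r = 0.994) and Wnk4 (r = 0.991). With 6 points that share the same 6 lists and 14313 loci to choose from, values this high are a ranking only.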

How the data were processed

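H3K27ac ChIP-seq of 6 newborn hearts was analysed from the deposited peak lists. No lists of the 6 inputs were analysed here. Per the submitters' processing notes, the tools were cutadapt, BWA, SAMtools and MACS2 and the build mm10 (GRCm38). Not given in the sources used here are their settings and whether inputs were controls. Peaks were deposited per heart. The deposited columns give each peak's fold enrichment (a ratio) and its −log10 p-value and −log10 q-value, the authors' own values, used only to rank or filter within a list. Depth per heart is unknown, so a missing region is one that was not called.

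Overlapping entries were merged, and covered bases from 10 kb before to 10 kb past each gene (RefSeq, GRCm38.p6) were taken as log2(bp + 200), which understates changes at short loci. Values were centred per heart on the mean over loci with called bases in every list. Only loci averaging at least 500 bp entered the fit, in which limma 3.58.1 (R 4.3.3, trend and robust, tested on simulated data) compared genotypes, adjusted by Benjamini-Hochberg over 14313 loci. Tables were made in Python 3.11.15. Each p-value sets a difference against the spread between these hearts, with each locus's variance drawn toward a trend over all tested loci. Regions of different hearts sharing 1 base were joined.

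Members and gene lists were chosen with earlier results of these data known. In the 3 pathway lists the called genes and the 2 lowest and 2 highest differences are named. Marker lists are given by counts and summed length, with a few single genes. For each member the 2 most similar loci are named, except 1 locus that is not reported here. Alternatives changed the window, assignment of regions, peak threshold, list length, centring, pseudocount, filter, limma settings, replicate block and hearts included. Same-numbered hearts were not treated as pairs, since only 2 numbers are shared. Deviations from the group means correlated at 0.179 (edKO 1 and WT 1) and 0.032 (edKO 3 and WT 3) across loci. Hearts with unlike numbers ran from -0.244 to 0.143, so edKO 1 and WT 1 were the most alike.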

Additional observations from a re-analysis of the deposited data

How the results depend on the processing

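No locus of the 6 passed the threshold under any of 20 alternatives. Ppargc1b stayed lower in edKO in all 20 (-0.38 to -0.21; limma adjusted p of 0.336 to 1.0), and without each heart in turn it was -0.37 to -0.24. It has no listed start, so the start-site alternative took both ends of this gene (-0.3). Directions of the differences at the other loci, all with intervals that include 0 in the fit reported above, turned as follows. With 50 kb on each side Esrra was 0.00072 and Ppargc1a 0.0175. With stricter lists (−log10 q of 5 or more) Esrrb was 0.0094 and Perm1 -0.043. Perm1 was -0.0194 with lists of equal length and -0.0424 without centring. Ppargc1a was 0.0685 at the start site, 0.00096 when a region counted only for the gene nearest to it, 0.12 after quantile normalization and 0.0039 with a pseudocount of 50 bp. With the replicate block, Esrrg was -0.0652. Without each heart in turn, Esrra ranged from -0.0558 to 0.0611, Esrrb from -0.45 to -0.09, Esrrg from -0.0531 to 0.31, Ppargc1a from -0.0597 to 0.0426 and Perm1 from -0.0883 to 0.15. The cause was not tested.

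The count of all loci past the threshold, 15 as reported, was 31 with 50 kb on each side, 9 when a region counted only for the gene nearest to it (7 lower, 2 higher), 9 with stricter lists, 6 with equal list length and 90 with the replicate block. Numbers 1 and 3 are the only ones that both groups share, and neither is known to mark a litter or a batch. In the block fit edKO 6 and WT 4 each stand alone in their block. Its genotype difference therefore rests on edKO 1, edKO 3, WT 1 and WT 3 alone. Leaving out 1 heart gave 0 to 9: 7 without edKO 1, 4 without edKO 3, 9 without edKO 6, 3 without WT 1, 0 without WT 3 and 1 without WT 4. Without WT 3, limma gave 556 loci lower and 241 higher at an unadjusted p below 0.05. Regions at the 6 loci called in all WT hearts and no edKO heart numbered 2 as reported, 1 when regions were joined only where they share 50% of the shorter one, 0 with equal list length, 1 in the gene body alone, 3 with stricter lists and 2 with 50 kb on each side.

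Depth per heart is unknown. The heart edKO 3 had the shortest total covered length, with nearly as many entries as edKO 1, and was the lowest heart at 4 of the 6 loci before centring, while WT 4 was lowest at Esrrg and Perm1.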
